A study of Arabidopsis thaliana with 42 samples.

Results

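The difference between sid2 and wild type leaves in their response to Pma was measured gene by gene as the change from mock to Pma in sid2 minus the change from mock to Pma in wild type. Pma is Pseudomonas syringae pv. maculicola ES4326, a bacterium that infects Arabidopsis thaliana leaves. The comparison weighs 12 of the 42 libraries of the series, chosen by their group labels: 3 libraries each of wild type mock, wild type Pma, sid2 mock and sid2 Pma. All 42 libraries entered the fit, so all of them set the filter, the experiment effect and the spread. The series holds 7 genotypes, and each group has 1 library from each of 3 independent experiments. The sid2 response is also compared below with those of the mutants labelled chp60g sard1 and wrky70, each with mock and Pma groups. Plants were 30 days old, leaves received Pma at an OD600 of 0.0002 or 5 mM magnesium sulfate as mock, and 2 leaves made up a library taken 24 h later. The sid2 plants carry a mutation in ICS1 whose allele is not given in the sources used here, and the 4 groups share age, growth conditions and time. Values are listed below in the order of experiments 1, 2 and 3, and a level is in CPM, the count of 3' tags relative to the library size scaled by TMM factors. Among these libraries, sid2 mock of experiment 1 stood apart in several salicylic acid outputs and sid2 Pma of experiment 3 in photosynthesis genes, and the values named below that rest most on them are given with and without them.

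Salicylic acid is a hormone that plants build up against biotrophic and hemibiotrophic pathogens. In Arabidopsis most of the pathogen-induced salicylic acid is made through isochorismate synthase 1 (ICS1, also SID2), with the carrier EDS5 and the conjugating enzyme PBS3 further along the route. It is perceived by NPR1, NPR3 and NPR4, and NPR1 acts with TGA factors at promoters of defence genes such as PR1. WRKY70 and WRKY54 are transcription factors that act downstream of salicylic acid, and N-hydroxypipecolic acid, made with ALD1 and FMO1, works beside it in systemic resistance.

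Of 15161 genes tested with edgeR's quasi-likelihood test, 262 (1.73%) had a difference in response at a Benjamini-Hochberg adjusted p under 0.05, and genes past this threshold are referred to as called. The difference was negative in 137 (0.904%) and positive in 125 (0.824%). Its median size was 1.86 among the negative and 2.01 among the positive, in log2 units, and 135 and 124 of them reached 2-fold. The 3 experiments gave the same sign in 136 of the 137 and in 125 of the 125. The genes were picked by a fit of these same experiments, so this agreement is partly built in. A fit without the experiment block called 36, of which 31 were negative and 5 positive. Single libraries also moved the count: it was 60 without wild type mock of experiment 1, 62 without sid2 Pma of experiment 2, 72 without wild type Pma of experiment 3, 89 without sid2 mock of experiment 3, 116 without sid2 Pma of experiment 1, 140 without sid2 mock of experiment 1, 140 without wild type Pma of experiment 1, 148 without wild type mock of experiment 3, and 186 to 253 without 1 of the other 4 libraries. All 262 genes kept their sign in each of these 12 fits. These fits share most libraries with the one that picked the genes, so the kept signs are also partly built in. Leaving out a whole experiment called 47, 2 and 57 genes without experiments 1, 2 and 3. The share of negative differences was 46.3% to 80.0% without 1 library, 23.4% without experiment 1 and 45.6% from the 12 libraries alone. Over all genes tested, called or not, 8528 differences were positive and 6633 negative.

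The called genes showed several response patterns. Among the 137 negative differences, 60 genes rose in wild type and were not called in sid2, 27 were not called in wild type and fell in sid2, 24 rose in wild type and fell in sid2, 15 rose in both and 11 fell in both. Among the 125 positive differences, 34 genes fell in wild type and were not called in sid2, 32 fell in both, 30 were not called in wild type and rose in sid2, 15 rose in both and 14 fell in wild type and rose in sid2. Wild type Pma had the highest mean for 113 of the 137, and sid2 Pma for 73 of the 125. Both genotypes responded widely, with 10051 genes (66.3%) called between mock and Pma in wild type and 9484 (62.6%) in sid2. Of all genes tested 32.3% rose and 34.0% fell in wild type, and 31.1% rose and 31.5% fell in sid2.

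**Figure D1:**
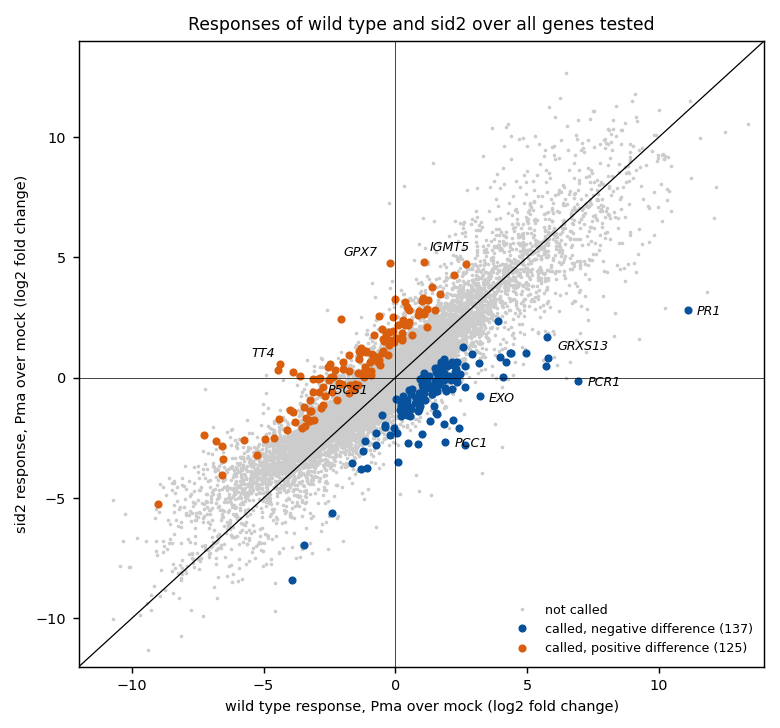
Log2 fold change from mock to Pma in wild type (horizontal axis) and in sid2 (vertical axis), with 1 point for each of 15161 genes tested and the diagonal marking equal responses. Blue points are the 137 called negative differences and orange points the 125 called positive ones, with PR1 and PCR1 farthest to the right among the blue points.

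The mutated gene was examined first. ICS1 (AT1G74710, chromosome 1, 28070295 to 28074177 in TAIR10.1) stood at 16.97, 20.5 and 15.98 CPM in wild type mock and at 392, 462 and 773 in wild type Pma. In sid2 it stood at 2.13, 0 and 1.62 CPM in mock and at 0.714, 2.95 and 2.14 in Pma, below all wild type libraries. On the log2 scale sid2 minus wild type was -3.78 ± 0.67 (SE) in mock (adjusted p = 0.0219) and -8.06 ± 0.60 in Pma (adjusted p = 7.77e-11). Its difference in response of -4.27 ± 1.19 was not called (adjusted p = 0.0533). That p ranged from 0.00392 (DESeq2) to 0.323 (without experiment 3) over the alternatives, and it was under the threshold without sid2 mock of experiment 2 (0.0308).

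In mock leaves 2 genes (0.0132%) were called between sid2 and wild type, ICS1 and AT1G75945, both lower in sid2. AT1G75945 had no count in sid2 mock and stood at 0, 0 and 0.535 CPM in sid2 Pma, against 13.7, 11.7 and 15.04 in wild type mock and 6.99, 11.5 and 12.9 in wild type Pma. It has no symbol in the reference and was chosen after its values were seen. At an unadjusted p under 0.05 there were 743 genes in mock, and DESeq2 also called 2. In Pma leaves 2200 genes (14.5%) were called, 852 (5.62%) lower and 1348 (8.89%) higher in sid2. That count was 1127 without the experiment block, 539 lower and 588 higher, and 454 and 1070 without experiments 2 and 3. It was 1242 without wild type Pma of experiment 3, 1338 without sid2 Pma of experiment 2, 1360 without wild type Pma of experiment 1, and 1603 to 1724 without 1 of the other 3 Pma libraries. None of the 262 genes was called in mock, and 131 of the 137 and 123 of the 125 were called with the same sign in Pma. Both tests use the same Pma libraries. In mock, sid2 minus wild type had the sign opposite to the difference in response in 110 of the 137 and 96 of the 125. Its medians over the 137 and the 125 were 0.23 and -0.22 in mock, against -1.55 and 1.76 in Pma. The mock values enter the difference in response with a minus sign, so they add to its size in these genes.

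Most of the salicylic acid route was induced in both genotypes. Of 7 listed genes of the isochorismate route and its activators, 6 rose in wild type and 5 in sid2, beside 32.3% and 31.1% of all genes tested. None of the 7 was called for the difference, and their median difference was -0.27 beside 0.11 over all genes tested. That median was -0.66 without wild type mock of experiment 1 and -0.03 without wild type mock of experiment 3. EDS5 reached 703 ± 93.6 CPM in wild type Pma against 695 ± 149 in sid2 Pma (mean ± SD, n = 3), and PBS3 841 ± 290.0 and 965 ± 151. CBP60G, a calmodulin-binding activator of ICS1, stood at 257, 236 and 273 CPM in wild type Pma and at 204, 151 and 222 in sid2 Pma (difference -0.95 ± 0.67, adjusted p = 0.506). SARD1, its relative with the same role, stood at 255, 217 and 278 CPM in wild type Pma and at 103, 48.7 and 80.8 in sid2 Pma. The SARD1 groups did not overlap in Pma and differed by -1.73 ± 0.51 (adjusted p = 0.0186), while the difference in response of -2.56 ± 0.91 was not called (adjusted p = 0.136).

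The 4 listed genes of N-hydroxypipecolic acid rose in both genotypes, beside 32.3% of all genes tested in wild type and 31.1% in sid2. Of these 4, 2 were lower in sid2 Pma, beside 5.62% of all genes tested, and none was called for the difference. ALD1, the aminotransferase that starts pipecolic acid synthesis, stood at 607, 760.1 and 1594 CPM in wild type Pma and at 795, 1013 and 1515 in sid2 Pma, with overlapping groups (difference -0.33 ± 1.56, adjusted p = 0.957). FMO1, which hydroxylates pipecolic acid, had no count in wild type mock and stood at 874, 874 and 768 CPM in wild type Pma and at 1131, 1105 and 1369.8 in sid2 Pma. No difference in response is given for genes such as FMO1 with 3 counts or fewer in one of the 4 groups, and its Pma levels were not called apart (0.54 ± 0.51, adjusted p = 0.537). UGT76B1, a glucosyltransferase of N-hydroxypipecolic acid chosen after its values were seen, stood at 343, 324 and 192 CPM in wild type Pma and at 4.29, 2.95 and 3.75 in sid2 Pma. It had no count in wild type mock, and its Pma levels differed by -6.20 ± 0.75 (adjusted p = 1.32e-06). Among 8 tested genes of salicylic acid turnover none was called for the difference. In Pma the hydroxylases DMR6 (187 CPM in wild type, 18.2 in sid2) and DLO1 were lower in sid2, while the methyltransferase BSMT1 (815 and 2972 CPM) and the esterase MES7 were higher.

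PCR1, GRXS13 and PCC1 were among the genes with the most negative differences under the naming rule, and their upstream sequences are printed to show how the windows of genes with a like difference vary. Each window is the 300 bases before the RefSeq gene start in TAIR10.1, 5' to 3' on the gene's strand. Capitals mark TTGAC, the core of the W box bound by WRKY factors, and TGACG, the core of the as-1 element bound by TGA factors, read on both strands; TTGACG would count for both.
PCR1 (chr1:5133861-5134160, minus strand): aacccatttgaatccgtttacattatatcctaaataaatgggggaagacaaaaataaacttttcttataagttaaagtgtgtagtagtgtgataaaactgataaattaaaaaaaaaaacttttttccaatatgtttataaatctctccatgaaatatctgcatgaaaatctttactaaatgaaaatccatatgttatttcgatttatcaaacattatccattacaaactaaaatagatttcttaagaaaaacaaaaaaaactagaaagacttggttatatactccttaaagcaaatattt
GRXS13 (chr1:977912-978211, minus strand): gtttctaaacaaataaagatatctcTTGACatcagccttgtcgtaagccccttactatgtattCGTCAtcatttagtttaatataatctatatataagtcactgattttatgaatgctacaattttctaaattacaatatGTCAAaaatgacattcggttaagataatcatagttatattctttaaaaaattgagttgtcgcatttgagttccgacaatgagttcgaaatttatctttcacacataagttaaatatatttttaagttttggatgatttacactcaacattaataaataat
PCC1 (chr3:7846834-7847133, minus strand): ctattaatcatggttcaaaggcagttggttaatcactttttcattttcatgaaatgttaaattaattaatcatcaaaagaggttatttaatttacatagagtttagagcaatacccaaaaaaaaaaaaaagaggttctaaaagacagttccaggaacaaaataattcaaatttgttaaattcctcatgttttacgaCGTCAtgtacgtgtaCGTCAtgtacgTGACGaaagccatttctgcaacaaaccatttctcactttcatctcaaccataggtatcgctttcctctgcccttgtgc
The PCR1 window held 0 TTGAC and 0 TGACG, the GRXS13 window 2 and 1, and the PCC1 window 0 and 3. TTGAC was present in 50.3% and TGACG in 22.5% of 15076 such windows over the genes tested. The shares were 58.4% and 32.1% over the 137 genes with a negative difference, and 46.4% and 20.8% over the 125 with a positive one. These are matches of letters, and no binding was measured.

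PR1 (AT2G14610, chromosome 2, 6241640 to 6242541), a secreted antimicrobial protein and a standard marker of salicylic acid signalling, stood at 3.92, 1.46 and 4.70 CPM in wild type mock and at 7341, 4471 and 6929 in wild type Pma. In sid2 it stood at 2.84, 11.6 and 4.85 CPM in mock and at 70.7, 22.1 and 56.7 in Pma. The sid2 Pma libraries lay above all 6 mock libraries and far below all wild type Pma libraries. PR1 rose by 11.10 ± 1.56 in wild type and by 2.82 ± 1.23 in sid2, and the difference was -8.28 ± 1.94 (adjusted p = 0.0242), with -6.34, -9.80 and -6.94 by experiment. The PR1 call was lost in 6 of 12 fits without 1 library, with an adjusted p of up to 0.134 (without sid2 mock of experiment 2).

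PR2 and PR5 gave no such call. PR2, a beta-1,3-glucanase, stood at 1233, 712 and 1786 CPM in wild type Pma and at 1951, 642 and 1036 in sid2 Pma, with overlapping groups (difference 1.13 ± 1.30, adjusted p = 0.711). PR5, a thaumatin-like protein, stood at 586, 179 and 250.2 CPM in wild type Pma and at 1037, 325 and 339 in sid2 Pma. The PR5 groups also overlapped, with sid2 the higher within each experiment (difference 2.93 ± 1.08, adjusted p = 0.150). The differences of PR2 and PR5 also take in the mock levels, so they are not differences in Pma levels. In mock, sid2 minus wild type had a median of -1.37 over the 4 listed PR genes, and none of the 4 was called there. Of 21 alternative fits 1, from the 12 libraries alone, called the PR5 difference in response (adjusted p = 0.0194). BG3, another glucanase gene, had 50.6 ± 23.9 CPM in wild type Pma against 2.396 ± 1.07 in sid2 Pma, and its Pma levels differed by -4.41 ± 0.76 (adjusted p = 0.000185). Of the 4 listed PR genes, PR1 was therefore called for the difference, beside 1.73% of all genes tested. PR1 and BG3 were lower in sid2 Pma, beside 5.62% of all genes tested.

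Of 15 tested genes listed as other salicylic acid outputs, 5 had a called negative difference, beside 0.904% of all genes tested. None had a called positive one, and the median was -2.13 beside 0.11 over all genes tested. In Pma 9 of the 15 were lower in sid2, beside 5.62% of all genes tested. Without 1 library the counts were 3 to 5 for the difference and 7 to 9 in Pma. The 5 are PCR1, GRXS13, PCC1, LURP1 and BDA1.

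PCR1 (AT1G14880, chromosome 1, 5132506 to 5133860), named for a role in cadmium resistance, stood at 43.7, 68.0 and 43.3 CPM in wild type mock and at 6797, 6803 and 5920.4 in wild type Pma. In sid2 it stood at 71.1, 15.2 and 51.0 CPM in mock and at 48.6, 25.1 and 44.4 in Pma, so sid2 Pma lay within the range of the mock libraries. PCR1 rose by 6.94 ± 1.01 in wild type, and the difference was -7.07 ± 1.25 (adjusted p = 0.00362), kept in all 12 fits without 1 library. GRXS13 (AT1G03850, chromosome 1, 975871 to 977911), a glutaredoxin, stood at 1.96, 5.12 and 0 CPM in wild type mock and 189, 139.9 and 107 in wild type Pma. In sid2, GRXS13 was at 4.97, 2.171 and 7.28 CPM in mock and 10.7, 4.43 and 10.2 in Pma. The 3 wild type Pma libraries were above all others, and the difference was -4.97 ± 1.00 (adjusted p = 0.00890). The GRXS13 call was lost without sid2 mock of experiment 3 (adjusted p = 0.0594).

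PCC1 (AT3G22231, chromosome 3, 7845823 to 7846833), a small protein named for control by pathogens and the circadian clock, moved in opposite directions. It stood at 342, 353 and 234 CPM in wild type mock and at 1058, 1361 and 928 in wild type Pma, and in sid2 at 825, 106 and 168 in mock and at 37.2, 59.0 and 40.1 in Pma. PCC1 rose in wild type (1.89 ± 0.55) and fell in sid2 (-2.67 ± 0.59), and the sid2 Pma libraries were the lowest of the 12. The difference was -4.56 ± 0.81 (adjusted p = 0.00362), kept in all 12 fits without 1 library. AT3G22235, which was chosen after its values were seen, went from a mean of 66.6 to 334 CPM in wild type and from 84.9 to 15.6 in sid2 (difference -4.50 ± 0.79, adjusted p = 0.00362). How tags shared between similar genes were counted is not given in the sources used here.

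LURP1, needed for full resistance to the oomycete Hyaloperonospora, stood at 74.4, 112 and 57.4 CPM in wild type mock and 1306, 1433 and 1316 in wild type Pma. In sid2, LURP1 was at 172, 7.23 and 44.5 CPM in mock and 84.3, 68.6 and 46.6 in Pma. Its difference was -4.02 ± 0.95 (adjusted p = 0.0268), with -5.13, -0.63 and -4.43 by experiment. The LURP1 call was lost in 6 of 12 fits without 1 library, with an adjusted p of up to 0.125 (without sid2 mock of experiment 1). BDA1, an ankyrin-repeat protein of plant immunity, stood at 207, 701 and 435 CPM in wild type Pma and at 22.9, 111 and 65.3 in sid2 Pma (difference -3.13 ± 0.78, adjusted p = 0.0347). The BDA1 call was lost in 8 of 12 fits without 1 library, with an adjusted p of up to 0.117 (without sid2 mock of experiment 1).

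The sid2 mock library of experiment 1 was the highest of the 3 sid2 mock libraries for 16 of the 20 genes named here with a called negative difference. Without it 6 of these 16 calls were lost, with differences of -3.29 for NIMIN2 (adjusted p = 0.261), -3.04 for LURP1 (adjusted p = 0.125), -3.59 for CRK5 (adjusted p = 0.0601), -2.55 for BDA1 (adjusted p = 0.117), -1.95 for MBD4 (adjusted p = 0.155) and -1.53 for CPFTSY (adjusted p = 0.0516). Calls kept without it included PCC1, WRKY70, WRKY54 and EXO, with differences of -3.80, -2.95, -3.14 and -3.65. In total, leaving this library out lost 7 of the 20 named negative calls and 15 of the 21 named positive calls. Among the 21 positive ones it was the highest sid2 mock library for 3.

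ARD3, an acireductone dioxygenase of methionine salvage, had too few counts in one group for a difference in response. It stood at 797, 781 and 598 CPM in wild type Pma and at 0.714, 2.21 and 1.61 in sid2 Pma, and these levels differed by -8.84 ± 1.07 (adjusted p = 1.32e-06). ECS1, a cell wall protein chosen after its values were seen, stood at 5362, 7929.5 and 8282 CPM in wild type Pma and at 1633, 2423 and 3058 in sid2 Pma. The ECS1 groups did not overlap in Pma (-1.60 ± 0.38, adjusted p = 0.00459), and its difference in response was not called (-1.61 ± 0.53, adjusted p = 0.106).

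**Figure D2:**
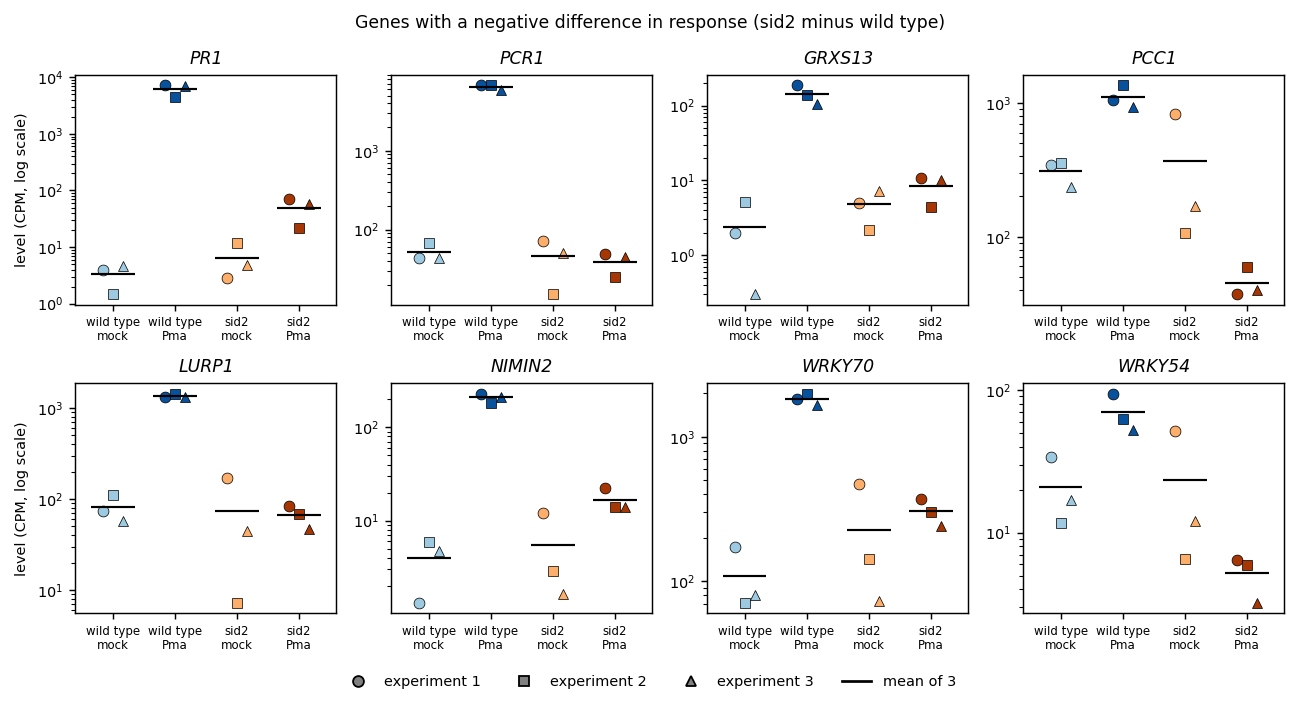
Levels of 8 genes with a called negative difference, in CPM on a log axis, with 1 point per library, the marker shape giving the experiment and the line the mean of 3. Values under 0.3 CPM are drawn at 0.3, and in all 8 panels the 3 wild type Pma libraries sit above the 9 others.

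Among 13 NPR receptors, TGA factors and NIMIN proteins, NIMIN2 was the 1 gene called for the difference, beside 1.73% of all genes tested. The list median was -0.37, with -0.66 without sid2 mock of experiment 2 and -0.21 without sid2 Pma of experiment 1. NIMIN2, which encodes a protein that binds NPR1, stood at 1.31, 5.85 and 4.70 CPM in wild type mock and 230.0, 185 and 214 in wild type Pma. In sid2, NIMIN2 was at 12.1, 2.89 and 1.62 CPM in mock and 22.1, 14.02 and 13.9 in Pma. It rose in both genotypes, by 5.75 ± 0.74 in wild type and 1.68 ± 0.71 in sid2 (difference -4.07 ± 1.05, adjusted p = 0.0429). The NIMIN2 call was lost in 9 of 12 fits without 1 library, with an adjusted p of up to 0.261 (without sid2 mock of experiment 1). In Pma 4 of the 13 were lower in sid2 (NPR3, NPR4, NIMIN1 and NIMIN2), beside 5.62% of all genes tested, and none was higher. NPR1 stood at 75.4 ± 5.67 CPM in wild type Pma against 48.97 ± 12.2 in sid2 Pma (difference -0.37 ± 0.38, adjusted p = 0.667). The 9 listed genes of the EDS1 family and helper receptors all had values below 0, beside 6633 of 15161 over all genes tested, and none was called. The median of the 9 was -0.26 (-0.64 without sid2 mock of experiment 2 and -0.24 without sid2 Pma of experiment 1). In Pma 3 of the 9 were lower in sid2, beside 5.62% of all genes tested. These were ADR1, a helper receptor (-1.19 ± 0.31, adjusted p = 0.00819), AT3G48080 and AT5G66910.

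Of 8 tested group III WRKY factors, 2 were called, WRKY70 and WRKY54, both with a negative difference, beside 0.904% of all genes tested. The list median was -2.71, also without the 4 members that had too few counts in one group. WRKY70 stood at 174, 70.9 and 79.9 CPM in wild type mock and at 1834, 1984 and 1652 in wild type Pma, and in sid2 at 469, 142 and 73.6 in mock and at 374, 302 and 240.4 in Pma. The treatments overlapped in sid2 and not in wild type. WRKY70 rose in wild type by 4.20 ± 0.56, its change in sid2 of 0.64 ± 0.50 was not called, and the difference was -3.56 ± 0.72 (adjusted p = 0.00932), kept in all 12 fits without 1 library. WRKY54 stood at 33.9, 11.7 and 16.9 CPM in wild type mock and 94.0, 63.0 and 52.2 in wild type Pma. In sid2, WRKY54 was at 51.2, 6.51 and 12.1 CPM in mock and 6.43, 5.90 and 3.21 in Pma. It rose in wild type and fell in sid2, with a difference of -3.76 ± 0.69 (adjusted p = 0.00460), kept in all 12 fits without 1 library.

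In Pma 6 of the 8 group III factors were lower in sid2, beside 5.62% of all genes tested. Without 1 library 4 to 6 were lower. WRKY38 stood at 148, 169 and 85.8 CPM in wild type Pma and at 0, 0.738 and 2.68 in sid2 Pma (-6.55 ± 0.99, adjusted p = 3.47e-05), with too few counts in another group for a difference in response. None of 17 tested group I and II factors was called for the difference. In sid2 Pma 3 were lower (WRKY18, WRKY60 and WRKY51), beside 5.62% of all genes tested. WRKY18 had 701 ± 137 CPM in wild type Pma against 152 ± 13.9 in sid2 Pma, and its difference in response of -3.08 ± 0.87 was not called (adjusted p = 0.0578).

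Several called genes encode proteins of the cell surface or of resistance. HR3, a relative of the mildew resistance protein RPW8, stood at 4.57, 3.66 and 1.88 CPM in wild type mock and 80.6, 76.9 and 61.1 in wild type Pma. In sid2, HR3 was at 9.95, 2.171 and 8.90 CPM in mock and 15.004, 11.8 and 14.99 in Pma. It rose in both genotypes (difference -3.37 ± 0.58, adjusted p = 0.00362), and the call was kept in all 12 fits without 1 library. WAK2, a wall-associated kinase that binds pectin, stood at 263, 272 and 226 CPM in wild type Pma and at 70.7, 60.5 and 57.8 in sid2 Pma, rose in wild type and fell in sid2 (difference -2.10 ± 0.41, adjusted p = 0.00689, kept in all 12 fits without 1 library). MLO2, a membrane protein whose loss gives powdery mildew resistance, stood at 86.8, 97.3 and 91.2 CPM in wild type mock and 477, 457 and 430.2 in wild type Pma. In sid2, MLO2 was at 125, 69.5 and 85.0 CPM in mock and 126, 115 and 115 in Pma. MLO2 rose in wild type and was not called in sid2 (difference -1.93 ± 0.38, adjusted p = 0.00689, kept in all 12 fits without 1 library).

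CRK5, a cysteine-rich receptor-like kinase, stood at 11.7, 7.31 and 6.58 CPM in wild type mock and 13.97, 17.999 and 13.5 in wild type Pma. In sid2, CRK5 was at 14.9, 6.51 and 11.3 CPM in mock and 0, 1.48 and 2.68 in Pma. It was not called in wild type and fell in sid2 (difference -3.59 ± 0.88, adjusted p = 0.0309), and the call was lost in 7 of 12 fits without 1 library, with an adjusted p of up to 0.0946 (without sid2 Pma of experiment 1). CRK5 was the 1 gene called of 13 in its family, and WAK2 the 1 called of 4 tested wall-associated kinases. Of all genes tested 1.73% were called. WAK1 had 999 ± 81.6 CPM in wild type Pma against 285 ± 9.70 in sid2 Pma (difference -1.52 ± 0.72, adjusted p = 0.274), and tags of these similar neighbouring kinases may not be separable. Of 16 calmodulin-like, CBP60 and calcium transport genes, AT4G25800 had a called negative difference (-3.33 ± 0.89, adjusted p = 0.0463) and CAX1 a called positive one. Negative and positive calls made up 0.904% and 0.824% of all genes tested. The AT4G25800 call was lost in 8 of 12 fits without 1 library, with an adjusted p of up to 0.137 (without sid2 mock of experiment 3).

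All 17 listed genes for protein folding in the endoplasmic reticulum rose in both genotypes, beside 32.3% of all genes tested in wild type and 31.1% in sid2. DAD1, a subunit of the oligosaccharyltransferase, was the 1 gene of the 17 called for the difference, beside 1.73% of all genes tested. It stood at 58.1, 44.6 and 46.1 CPM in wild type mock and 186, 162 and 173 in wild type Pma. In sid2, DAD1 was at 64.7, 54.3 and 58.3 CPM in mock and 91.5, 66.4 and 96.9 in Pma. Its difference was -1.30 ± 0.28 (adjusted p = 0.0145). The DAD1 call was lost without sid2 Pma of experiment 2 (adjusted p = 0.0618). The list median was -0.19 (-0.42 without wild type mock of experiment 2 and 0.00418 without wild type Pma of experiment 3), and the chaperone BIP2 had 835 ± 302 CPM in wild type Pma against 801 ± 345 in sid2 Pma.

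Other named genes with a negative difference lie outside the lists. GSTU27, a glutathione transferase, stood at 54.8, 46.8 and 60.2 CPM in wild type mock and 35.5, 23.7 and 19.6 in wild type Pma. In sid2, GSTU27 was at 76.0, 45.6 and 51.8 CPM in mock and 2.86, 1.48 and 6.96 in Pma. It fell in both genotypes, by -1.08 ± 0.33 in wild type and -3.77 ± 0.40 in sid2 (difference -2.69 ± 0.51, adjusted p = 0.00637, kept in all 12 fits without 1 library). CPFTSY, the chloroplast receptor of the signal recognition particle, stood at 38.2, 50.7 and 46.6 CPM in wild type Pma and at 8.57, 11.1 and 12.3 in sid2 Pma. CPFTSY was not called in wild type and fell in sid2 (difference -1.82 ± 0.39, adjusted p = 0.0131), and the call was lost without sid2 mock of experiment 1 (adjusted p = 0.0516). ABCC12, an ABC transporter, stood at 23.6, 23.7 and 22.997 CPM in wild type Pma and at 1.43, 2.21 and 4.28 in sid2 Pma (difference -2.64 ± 0.69, adjusted p = 0.0429). The ABCC12 call was lost in 9 of 12 fits without 1 library, with an adjusted p of up to 0.113 (without sid2 Pma of experiment 1). MBD4, a methyl-CpG-binding domain protein, stood at 36.01, 36.8 and 38.7 CPM in wild type Pma and at 10.7, 9.59 and 5.89 in sid2 Pma (difference -2.50 ± 0.61, adjusted p = 0.0293). The MBD4 call was lost in 8 of 12 fits without 1 library, with an adjusted p of up to 0.155 (without sid2 mock of experiment 1).

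EXO, a protein of brassinosteroid-promoted growth, had its high levels in experiment 1. It stood at 16.3, 2.19 and 0 CPM in wild type mock and 199.9, 9.82 and 2.80 in wild type Pma. In sid2, EXO was at 143, 7.23 and 1.62 CPM in mock and 64.3, 2.95 and 3.21 in Pma. In mock leaves EXO was higher in sid2 within each experiment, by 3.03, 1.29 and 1.18 on the log2 scale, and the fitted value of 2.74 ± 0.56 was not called (adjusted p = 0.0900). In Pma sid2 minus wild type was -1.25 ± 0.46, also not called (adjusted p = 0.0643). The difference was -3.98 ± 0.72 (adjusted p = 0.00362), with -4.65, -2.68 and -1.04 by experiment, and the call was lost without wild type mock of experiment 1 (adjusted p = 0.0771).

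The lowest adjusted p among the 262 genes was that of AT3G29240, which went from 153 ± 89.9 to 644 ± 154 CPM in wild type and from 169 ± 84.4 to 48.9 ± 24.8 in sid2 (difference -3.92 ± 0.44, adjusted p = 4.29e-06). AT5G03350 went from 142 ± 20.5 to 866 ± 104 CPM in wild type and from 138 ± 109 to 16.6 ± 9.63 in sid2 (difference -5.45 ± 0.88, adjusted p = 0.00186). Neither has a symbol in the reference, and both were chosen after their values were seen.

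Turning to the positive differences, TT4, the chalcone synthase that opens flavonoid synthesis, stood at 44.4, 41.7 and 58.3 CPM in wild type mock and at 0, 8.9996 and 1.12 in wild type Pma. In sid2 it stood at 12.8, 28.2 and 37.2 CPM in mock and at 15.004, 62.0 and 40.1 in Pma, and the wild type Pma libraries were the lowest of the 12. TT4 fell in wild type by -4.36 ± 0.76, its change in sid2 of 0.56 ± 0.60 was not called, and the difference was 4.92 ± 0.98 (adjusted p = 0.00689), kept in all 12 fits without 1 library. It was the 1 gene called of 4 tested in the flavonoid list, beside 1.73% of all genes tested. The 4 values were all positive with a median of 1.85. Over all genes tested 8528 of 15161 values were positive.

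GPX7, a glutathione peroxidase-like protein, stood at 6.53, 5.12 and 5.64 CPM in wild type mock and 0.537, 14.7 and 3.93 in wild type Pma. In sid2, GPX7 was at 1.42, 2.89 and 3.24 CPM in mock and 37.2, 105 and 62.6 in Pma. The sid2 Pma libraries were the highest of the 12 (difference 4.94 ± 0.97, adjusted p = 0.00689), and the call was lost without wild type mock of experiment 1 (adjusted p = 0.0534). CYP81D5, a cytochrome P450, stood at 3.26, 4.39 and 3.76 CPM in wild type mock and 0.537, 0 and 1.68 in wild type Pma. In sid2, CYP81D5 was at 0.711, 3.62 and 2.43 CPM in mock and 8.57, 19.9 and 9.10 in Pma. It fell in wild type and rose in sid2 (difference 4.49 ± 0.99, adjusted p = 0.0139), and the call was lost without sid2 Pma of experiment 2 (adjusted p = 0.0509) and without wild type mock of experiment 1 (adjusted p = 0.0590). CYP81D11, a relative with too few counts in one group for a difference in response, stood at 0, 4.09 and 2.80 CPM in wild type Pma and at 3.57, 39.1 and 133 in sid2 Pma (4.45 ± 1.03, adjusted p = 0.00263).

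IGMT5, a methyltransferase of indole glucosinolates, stood at 8.48, 0 and 3.76 CPM in wild type mock and 14.5, 4.91 and 3.37 in wild type Pma. In sid2, IGMT5 was at 12.8, 0 and 4.05 CPM in mock and 339, 12.5 and 144 in Pma. The Pma groups overlapped, since sid2 of experiment 2 lay below wild type of experiment 1 (difference 3.73 ± 1.02, adjusted p = 0.0454). The IGMT5 call was lost in 10 of 12 fits without 1 library, with an adjusted p of up to 0.331 (without wild type mock of experiment 1). IGMT1, a related methyltransferase with too few counts in one group, stood at 13.97, 3.27 and 28.05 CPM in wild type Pma and at 294, 84.1 and 308 in sid2 Pma (4.09 ± 0.45, adjusted p = 1.05e-07). Tags of these related genes may not be separable.

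A further group fell in wild type and was not called in sid2. P5CS1, an enzyme of proline synthesis, stood at 159, 241 and 175 CPM in wild type mock and 11.3, 63.8 and 20.2 in wild type Pma. In sid2, P5CS1 was at 111, 221 and 181 CPM in mock and 83.6, 305 and 166 in Pma (difference 2.84 ± 0.73, adjusted p = 0.0427). The P5CS1 call was lost in 10 of 12 fits without 1 library, with an adjusted p of up to 0.137 (without wild type mock of experiment 1). RALFL34, a secreted peptide of the rapid alkalinization factor family, stood at 51.6, 49.002 and 65.8 CPM in wild type mock and 6.45, 4.91 and 10.7 in wild type Pma. In sid2, RALFL34 was at 46.2, 65.1 and 58.3 CPM in mock and 75.7, 28.8 and 59.4 in Pma (difference 2.86 ± 0.66, adjusted p = 0.0234). The RALFL34 call was lost in 6 of 12 fits without 1 library, with an adjusted p of up to 0.0800 (without sid2 Pma of experiment 1). C/VIF2, an inhibitor of invertases, stood at 2.69, 1.64 and 0 CPM in wild type Pma and at 18.6, 11.1 and 17.7 in sid2 Pma (difference 3.68 ± 0.94, adjusted p = 0.0393). The C/VIF2 call was lost in 10 of 12 fits without 1 library, with an adjusted p of up to 0.132 (without wild type Pma of experiment 3). For these 3 genes the wild type Pma libraries were the lowest of the 12. HYR1, a glycosyltransferase, stood at 0, 17.2 and 5.61 CPM in wild type Pma and at 6.43, 58.3 and 23.6 in sid2 Pma, with overlapping groups (difference 2.62 ± 0.70, adjusted p = 0.0454). The HYR1 call was lost in 9 of 12 fits without 1 library, with an adjusted p of up to 0.143 (without sid2 Pma of experiment 2).

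GSTU18 and NdhU fell in both genotypes and were lowest in the 3 wild type Pma libraries. GSTU18, a glutathione transferase, stood at 2.15, 3.27 and 4.49 CPM in wild type Pma and at 11.4, 31.7 and 40.1 in sid2 Pma (difference 2.70 ± 0.72, adjusted p = 0.0454). The GSTU18 call was lost in 11 of 12 fits without 1 library, with an adjusted p of up to 0.142 (without wild type mock of experiment 1). NdhU, a subunit of the chloroplast NADH dehydrogenase-like complex, stood at 106, 113 and 95.9 CPM in wild type mock and 1.07, 1.64 and 0.561 in wild type Pma. In sid2, NdhU was at 105, 133 and 109 CPM in mock and 6.43, 3.69 and 10.7 in Pma (difference 2.54 ± 0.67, adjusted p = 0.0429). The NdhU call was lost in 11 of 12 fits without 1 library, with an adjusted p of up to 0.167 (without wild type Pma of experiment 3).

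Of the genes that fell in wild type and rose in sid2, TLL1, a lipase-like protein, stood at 63.3, 75.3 and 60.2 CPM in wild type mock and 13.97, 39.3 and 27.5 in wild type Pma. In sid2, TLL1 was at 48.3, 62.9 and 78.5 CPM in mock and 136, 144 and 95.8 in Pma (difference 2.39 ± 0.55, adjusted p = 0.0204). The TLL1 call was lost in 8 of 12 fits without 1 library, with an adjusted p of up to 0.0714 (without wild type Pma of experiment 1). CAX1, the vacuolar calcium-proton exchanger, stood at 142, 369 and 145 CPM in wild type mock and 62.9, 210.3 and 94.2 in wild type Pma. In sid2, CAX1 was at 136, 291 and 180.4 CPM in mock and 195, 668 and 334 in Pma, and experiment 2 was the highest in each group. Its difference was 1.76 ± 0.43 (adjusted p = 0.0303). It was positive in each experiment, and the call was lost in 8 of 12 fits without 1 library, with an adjusted p of up to 0.0928 (without wild type mock of experiment 1). BBX29, a B-box protein (difference 2.55 ± 0.62, adjusted p = 0.0301), and SEP4, a MADS-box factor known from flowers (difference 2.51 ± 0.68, adjusted p = 0.0496), had the same pattern with overlapping Pma groups. The BBX29 call was lost in 7 of 12 fits without 1 library, with an adjusted p of up to 0.107 (without wild type Pma of experiment 3). The SEP4 call was lost in 11 of 12 fits without 1 library, with an adjusted p of up to 0.180 (without wild type mock of experiment 1).

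In another pattern the wild type response was not called and the gene rose in sid2, with sid2 Pma the highest 3 of the 12 libraries. CEP3, a cysteine endopeptidase, stood at 3.22, 2.45 and 2.80 CPM in wild type Pma and at 22.1, 9.59 and 23.02 in sid2 Pma (difference 3.32 ± 0.84, adjusted p = 0.0352). The CEP3 call was lost in 8 of 12 fits without 1 library, with an adjusted p of up to 0.126 (without wild type mock of experiment 1). CLE44, a precursor of a signalling peptide of vascular development, stood at 3.76, 1.64 and 4.49 CPM in wild type Pma and at 21.4, 18.4 and 22.5 in sid2 Pma (difference 3.17 ± 0.77, adjusted p = 0.0309). The CLE44 call was lost in 8 of 12 fits without 1 library, with an adjusted p of up to 0.202 (without wild type mock of experiment 1). ACT1, an actin with close relatives whose tags may not be separable, stood at 8.06, 3.27 and 10.1 CPM in wild type Pma and at 42.9, 44.3 and 54.1 in sid2 Pma (difference 2.53 ± 0.64, adjusted p = 0.0378). The ACT1 call was lost in 8 of 12 fits without 1 library, with an adjusted p of up to 0.126 (without wild type mock of experiment 1). PUP1, a purine permease, stood at 13.97, 8.18 and 16.8 CPM in wild type Pma and at 90.0, 19.9 and 56.7 in sid2 Pma (difference 2.12 ± 0.45, adjusted p = 0.0124). The PUP1 call was lost without sid2 Pma of experiment 1 (adjusted p = 0.0524) and without wild type mock of experiment 1 (adjusted p = 0.0693). NAS3, a nicotianamine synthase, stood at 4.84, 17.2 and 7.85 CPM in wild type Pma and at 181, 211 and 74.9 in sid2 Pma; it was called in Pma (4.21 ± 0.75, adjusted p = 0.000317) and not for the difference in response (4.19 ± 1.21, adjusted p = 0.0646).

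AOS, the allene oxide synthase of jasmonate synthesis, stood at 270.2, 205 and 220.0 CPM in wild type mock and 211, 371 and 420.1 in wild type Pma. In sid2, AOS was at 225, 213 and 334 CPM in mock and 1085, 980.4 and 1445 in Pma. It was not called in wild type and rose in sid2 (difference 1.70 ± 0.43, adjusted p = 0.0389), and the call was lost in 10 of 12 fits without 1 library, with an adjusted p of up to 0.151 (without wild type mock of experiment 1). AOS was the 1 gene called of 12 in jasmonate biosynthesis, beside 1.73% of all genes tested. Of these 12 values 10 were positive, beside 8528 of 15161 over all genes tested. The list median was 1.08, with 0.56 without wild type mock of experiment 1 and 1.37 without wild type Pma of experiment 2. In Pma 6 of the 12 were higher in sid2 (LOX2, LOX3, AOS, AOC1, AOC2 and AOC4), beside 8.89% of all genes tested. JAR1, which conjugates jasmonate to isoleucine, was lower in sid2 Pma (-0.67 ± 0.22, adjusted p = 0.0333). The JAR1 call was lost in 4 of 6 fits without 1 Pma library, with an adjusted p of up to 0.184 (without wild type Pma of experiment 1). The number higher was 3 without wild type Pma of experiment 1, 3 without wild type Pma of experiment 3, and 4 to 6 without 1 of the other 4 Pma libraries.

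**Figure D3:**
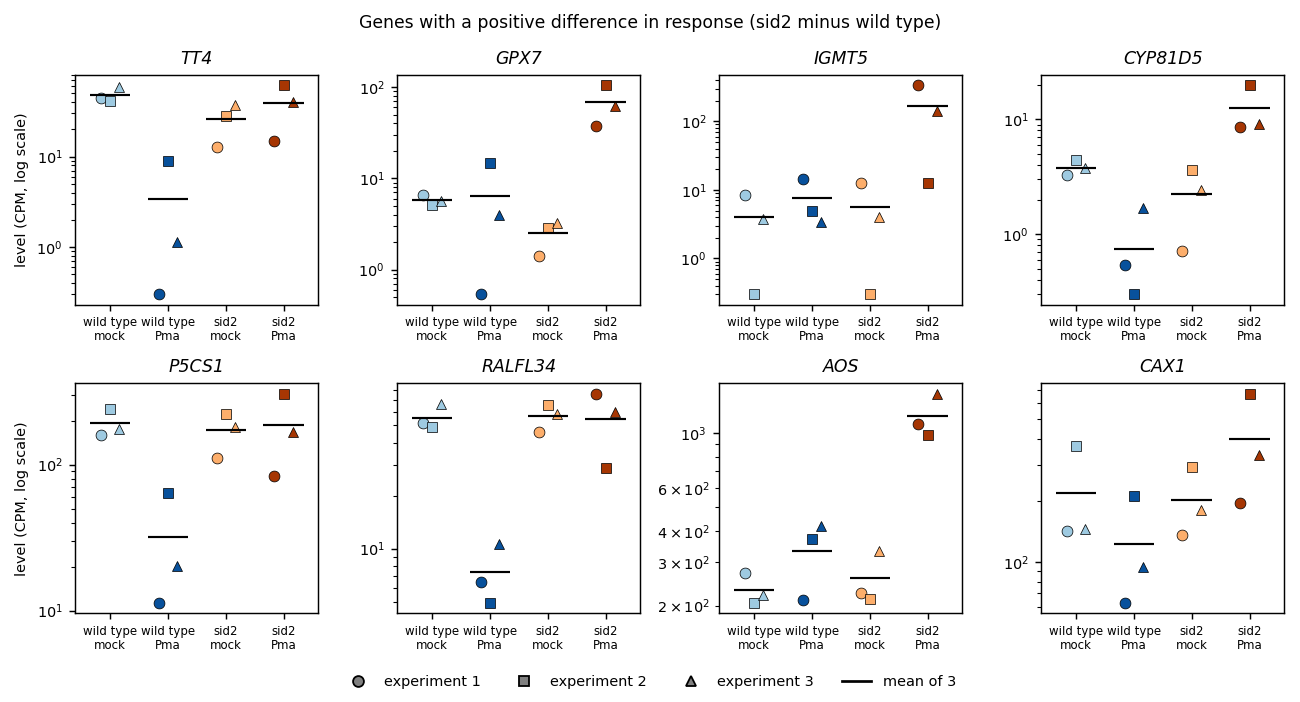
Levels of 8 genes with a called positive difference, in CPM on a log axis, with 1 point per library, the marker shape giving the experiment and the line the mean of 3. Values under 0.3 CPM are drawn at 0.3, and for GPX7, CYP81D5 and AOS the 3 sid2 Pma libraries sit above the 9 others.

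No gene was called for the difference among 12 tested JAZ repressors, 8 outputs of the MYC2 branch and 5 tested outputs of the ORA59 and ERF1 branch, and 2 members of each list (2 of 12, 2 of 8 and 2 of 5) were higher in sid2 Pma, beside 8.89% of all genes tested. VSP1 and VSP2, vegetative storage proteins induced by jasmonate, were chosen after their values were seen. VSP1 stood at 40.3, 677 and 213 CPM in wild type Pma and at 3786, 3215 and 4386 in sid2 Pma, without overlap (difference 3.94 ± 1.81, adjusted p = 0.260). VSP2 stood at 126, 1789 and 547 CPM in wild type Pma and at 5982, 7242 and 7734 in sid2 Pma, again without overlap (difference 4.75 ± 1.66, adjusted p = 0.126). In mock, VSP1 was at 3.92, 4.39 and 1.88 CPM in wild type and 6.40, 0 and 1.62 in sid2. VSP2 mock levels were 39.2, 12.4 and 5.64 CPM in wild type and 13.5, 2.89 and 1.62 in sid2. They were lower in sid2 within each experiment, which adds to the VSP2 difference in response. In Pma alone VSP1 was called (3.55 ± 0.94, adjusted p = 0.00964) and VSP2 was not (2.99 ± 1.06, adjusted p = 0.0547), and the pair are close relatives.

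NYC1, a chlorophyll b reductase, rose in both genotypes, from 99.2, 87.8 and 85.6 to 178, 187 and 213 CPM in wild type and from 71.1, 63.7 and 97.9 to 551, 557 and 298 in sid2 (difference 1.56 ± 0.40, adjusted p = 0.0418). The NYC1 call was lost in 11 of 12 fits without 1 library, with an adjusted p of up to 0.151 (without wild type mock of experiment 1). ML1, an RNA-binding protein of the MEI2-like family, rose from 61.4 ± 13.7 to 147 ± 58.0 CPM in wild type and from 43.9 ± 9.07 to 192 ± 70.8 in sid2 (difference 0.88 ± 0.24, adjusted p = 0.0483), and the call was lost in 10 of 12 fits without 1 library, with an adjusted p of up to 0.221 (without sid2 mock of experiment 3). Of 9 tested genes in the list of senescence and chlorophyll breakdown none was called for the difference. Of these 9, SAG12, NYE1, PAO and PPH were higher in sid2 Pma, beside 8.89% of all genes tested. SAG12, a protease of late senescence chosen after its values were seen, had no count in the other 3 groups and stood at 6.43, 64.9 and 1.61 CPM in sid2 Pma.

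All 26 listed photosynthesis genes fell in both genotypes, beside 34.0% of all genes tested in wild type and 31.5% in sid2. The 26 differences were all positive, from 0.69 to 1.82 with a median of 1.26, and none was called. Over all genes tested 8528 of 15161 differences were positive. LHCB1.1, a light-harvesting protein, went from 8952 ± 1234 to 405 ± 179 CPM in wild type and from 8838 ± 1167 to 1537 ± 1248 in sid2 (difference 1.82 ± 0.75, adjusted p = 0.196). Without sid2 Pma of experiment 3 the median was 0.88 with 25 of 26 values positive, and the LHCB1.1 difference was 1.22 ± 0.76 (adjusted p = 0.449). In Pma 16 of the 26 were higher in sid2, beside 8.89% of all genes tested. But only 1 was higher without sid2 Pma of experiment 3 and 2 were without wild type Pma of experiment 3. Without wild type Pma of experiment 1 there were 5, and without wild type Pma of experiment 2 there were 10. The summed level of 6 mesophyll markers was 2949, 3705 and 4049 CPM in wild type Pma and 4921, 5956 and 15394 in sid2 Pma, so the sid2 Pma library of experiment 3 stood apart. In these bulk samples fewer cells of a type and less RNA per cell cannot be told apart.

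Of 15 tested genes of abscisic acid metabolism and outputs none was called for the difference. Of the 15 values 14 were positive, beside 8528 of 15161 over all genes tested, and the list median was 0.98. That median was 0.54 without sid2 Pma of experiment 2 and 1.72 without sid2 mock of experiment 1. In Pma 6 were higher in sid2 (ABI1, CYP707A1, RD29A, COR15A, COR47 and ERD10), beside 8.89% of all genes tested. That count was 1 without wild type Pma of experiment 1, 2 without wild type Pma of experiment 3 and 2 without sid2 Pma of experiment 2. Camalexin genes also gave no call for the difference among 8, and PAD3, which makes camalexin, stood at 847, 479 and 722 CPM in wild type Pma and at 1285, 684 and 1004 in sid2 Pma (difference -0.52 ± 1.27, adjusted p = 0.889). None of 7 tested tryptophan biosynthesis genes was called for the difference or in Pma.

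**Figure D4:**
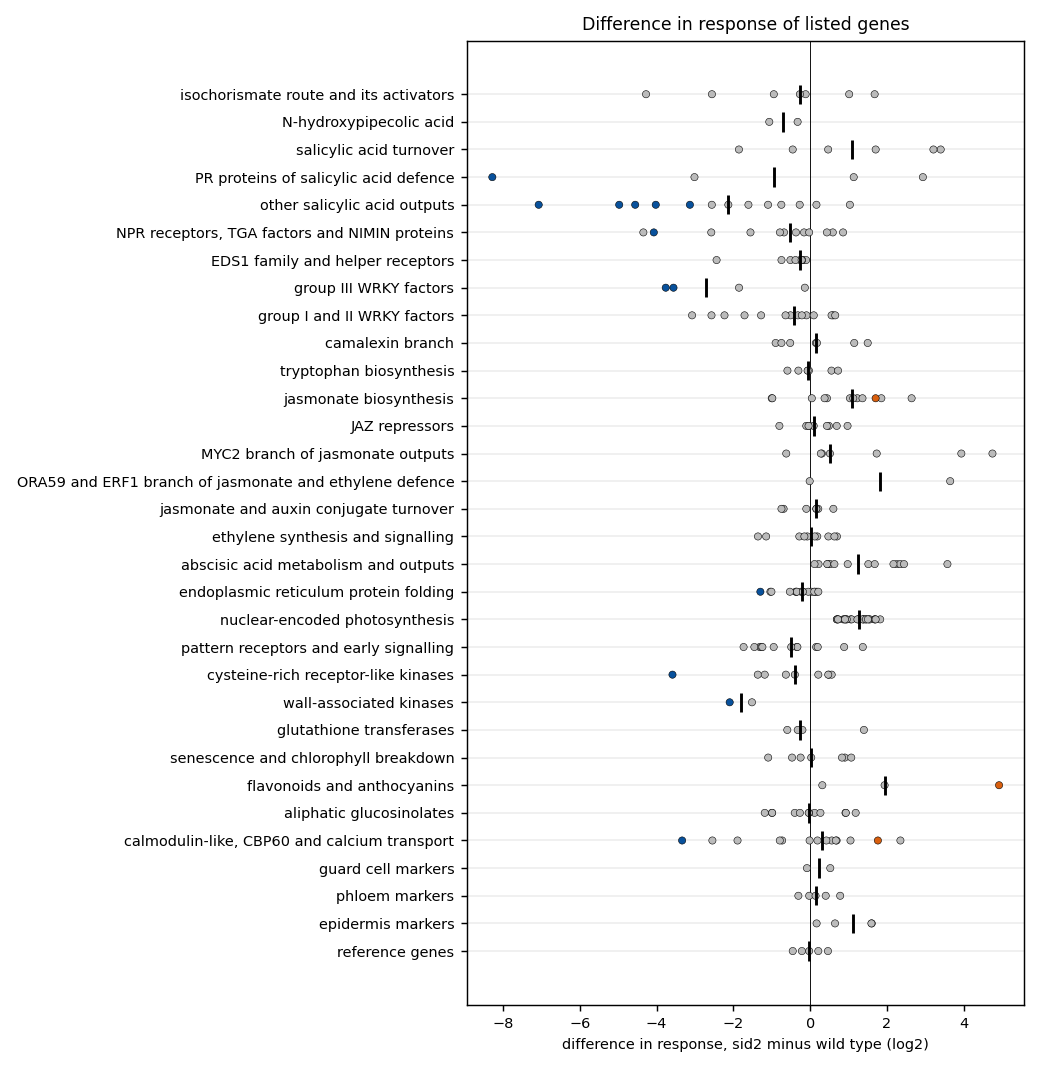
Difference in response (sid2 minus wild type, log2) of the tested members of each gene list that had more than 3 counts in each of the 4 groups, with 1 point per gene. Blue and orange points are called negative and positive differences, grey points were not called, and the black line is the median of the points drawn. Called points are few beside grey ones in most lists. List medians and sign counts in the text also include tested members with too few counts, so some medians differ from the lines. The text gives 0.98 for abscisic acid, where the line is at 1.245, and -0.37 for the NPR list, where it is at -0.53.

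The sid2 response was also compared with those of other mutants, and these tests share the sid2 libraries with the comparison above. Between sid2 and chp60g sard1 (spelled as in the labels), 74 genes (0.488%) differed in response, 20 (0.132%) with a lower and 54 (0.356%) with a higher value in sid2. Among genes also called against wild type, EXO was lower (-3.46 ± 0.67, adjusted p = 0.00977), and NYC1 (2.08 ± 0.41, adjusted p = 0.0123) and ML1 (1.07 ± 0.24, adjusted p = 0.0299) were higher. PR1 was not called (1.72 ± 1.62, adjusted p = 0.770). Leaving out 1 library gave 14 (without sid2 mock of experiment 2) to 66 calls.

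Against wrky70, the mutant of WRKY70, 89 genes (0.587%) differed in response, 18 (0.119%) lower and 71 (0.468%) higher in sid2. PR1 stood at 507, 8.76 and 67.1 CPM in wrky70 mock and at 7263, 6063 and 6814 in wrky70 Pma, and its responses were not called apart (-3.05 ± 1.65, adjusted p = 0.514). PCC1 stood at 1239, 635 and 778 CPM in wrky70 mock and at 1635, 1235 and 1092 in wrky70 Pma, and its response was lower in sid2 (-3.27 ± 0.79, adjusted p = 0.0441). Lower responses in sid2 were also called for WRKY54 (-3.24 ± 0.67, adjusted p = 0.0164), MLO2 (-1.98 ± 0.38, adjusted p = 0.00718) and CPFTSY (-2.55 ± 0.39, adjusted p = 0.00108). Higher ones were called for GPX7 (5.03 ± 1.05, adjusted p = 0.0164), CEP3 (4.33 ± 0.88, adjusted p = 0.0115), TLL1 (3.21 ± 0.55, adjusted p = 0.00400), P5CS1 (3.06 ± 0.74, adjusted p = 0.0441) and PUP1 (2.91 ± 0.45, adjusted p = 0.00111). Leaving out 1 library gave 30 (without wrky70 mock of experiment 1) to 105 calls.

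Total counts ranged from 1042600 to 2102624 over the 12 libraries, with 16837 to 18177 loci seen in each. No tested marker of guard cells (3 of 5 tested), phloem (5 of 5) or epidermis (4 of 5) was called for the difference or in Pma. The summed guard cell markers were at 107 to 149 CPM in wild type Pma and 119 to 157 in sid2 Pma, the phloem markers at 377 to 428 and 461 to 534, and the epidermis markers at 29.2 to 56.4 and 37.2 to 145. Of 5 root and seed markers 4 have a row, and their sum was 0 to 7.36 CPM in wild type Pma and 23.6 to 117 in sid2 Pma, with 2 of the 4 at 0 in sid2 Pma. BGLU23, a beta-glucosidase, made up nearly all of it, with no mock count, 0.537, 6.55 and 0 CPM in wild type Pma and 23.6, 117 and 72.8 in sid2 Pma (5.17 ± 1.15, adjusted p = 0.00242). Its part in the other results was not tested.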

How the data were processed

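Smart-3SEQ libraries, which count tags near the 3' end of transcripts, were deposited by the authors as a table of raw counts per locus. Per the submitters' processing notes, bcl2fastq 2.17.1.14, STAR 2.4.2a and the TAIR10 genome were used; the counting tool, annotation, strand setting and use of molecular identifiers are not given in the sources used here, so tags of overlapping, antisense or near-identical genes may be mixed. Replicates of a group differed by more than counting noise (chi-square per degree of freedom 3.38 to 14.9).

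All 42 libraries entered 1 edgeR 4.0.16 quasi-likelihood fit in R 4.3.3 (limma 3.58.1) with 14 groups, the experiment as a block, TMM factors and 26 residual degrees of freedom. Loci passed filterByExpr with a minimum count of 10 and a minimum total of 15, and Benjamini-Hochberg adjustment covered 15161 loci and each contrast on its own. SE is the absolute log2 difference over the square root of F. Levels are TMM-scaled CPM, and values by experiment come from log2 CPM with a prior count of 2. Replicate numbers pair the libraries because the series' design text describes 3 independent experiments with each genotype and treatment; same-numbered deviations of wild type and sid2 correlated at 0.369, 0.330 and 0.0951 on average. The alternatives were RLE factors, no filter, no block, the legacy fit, DESeq2 1.42.0, fewer libraries, and 1 experiment or library left out. List counts and medians, and JAR1 and LHCB1.1, without 1 library were added after seeing the data.

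The members, the 33 gene lists and the tests were chosen with earlier results of these data known, so no list is independent evidence. Named genes were the 15 lowest and 15 highest called differences with a symbol, 10 CPM or more as the highest group mean, more than 3 counts in each group and 1 sign over experiments; up to 4 called members per list; 5 per direction for each secondary comparison; and 10 fixed genes. Gene names, positions and upstream windows come from the RefSeq TAIR10.1 reference, in which 24701 of 24843 loci were found. The method was tested on simulated data: of 14828 unchanged genes 5 were called. The simulated counts were drawn from the model of groups and block that the fit assumes. A low count was therefore partly built in, and it does not measure how the calls hold in the real libraries. Figures were drawn with matplotlib 3.10.9 in Python 3.11.15.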

Additional observations from a re-analysis of the deposited data

Results flagged for a closer look

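A test of the difference between responses singled out 41 named genes for sid2 against wild type, with the values repeated here as the sid2 response minus the other response on the log2 scale. The 20 negative ones were PR1 (-8.28), PCR1 (-7.07), GRXS13 (-4.97), PCC1 (-4.56), NIMIN2 (-4.07), LURP1 (-4.02), EXO (-3.98), WRKY54 (-3.76), CRK5 (-3.59), WRKY70 (-3.56), HR3 (-3.37), AT4G25800 (-3.33), BDA1 (-3.13), GSTU27 (-2.69), ABCC12 (-2.64), MBD4 (-2.50), WAK2 (-2.10), MLO2 (-1.93), CPFTSY (-1.82) and DAD1 (-1.30). The 21 positive ones were ML1 (0.88), NYC1 (1.56), AOS (1.70), CAX1 (1.76), PUP1 (2.12), TLL1 (2.39), SEP4 (2.51), ACT1 (2.53), NdhU (2.54), BBX29 (2.55), HYR1 (2.62), GSTU18 (2.70), P5CS1 (2.84), RALFL34 (2.86), CLE44 (3.17), CEP3 (3.32), C/VIF2 (3.68), IGMT5 (3.73), CYP81D5 (4.49), TT4 (4.92) and GPX7 (4.94). Against chp60g sard1 there were 3, EXO (-3.46), ML1 (1.07) and NYC1 (2.08), and against wrky70 9, PCC1 (-3.27), WRKY54 (-3.24), MLO2 (-1.98), CPFTSY (-2.55), PUP1 (2.91), TLL1 (3.21), P5CS1 (3.06), CEP3 (4.33) and GPX7 (5.03). The tests against these mutants share the sid2 libraries with the test against wild type.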

How the results depend on the processing

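The count of 262 genes with a difference in response was 266 with RLE factors, 214 with the legacy quasi-likelihood fit and 189 without the filter on low counts. It was 36 without the replicate block, 399 with DESeq2 and 515 from the 12 libraries alone. The share of negative differences was 52.3% in the reported fit and 86.1% without the block, 45.6% from the 12 libraries alone, 23.4% and 59.6% without experiments 1 and 3, and 46.3% to 80.0% without 1 library. The 2200 calls in Pma, of which 38.7% were lower, became 1127 without the replicate block, of which 47.8% were lower. The 2 calls in mock became 1 with the legacy fit and 4 from the 12 libraries alone. Against chp60g sard1 the 74 calls became 8 without the replicate block and 114 with DESeq2, and against wrky70 the 89 became 11, 153 and, from the 24 libraries of the 4 genotypes, 150. The cause was not tested.

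Without 1 experiment or 1 library the counts ranged over 2 to 253 for the difference in response, 454 to 1724 in Pma, 0 to 2 in mock, 8707 to 9682 for the wild type response, 8049 to 9045 for the sid2 response, 3 to 66 against chp60g sard1 and 6 to 189 against wrky70. The 2 calls for the difference in response, both negative, came without experiment 2, and 47 and 57 without experiments 1 and 3. Of the 262 genes, 59 to 191 kept their call without 1 library. Of 41 named genes called for the difference, 9 kept the call in all 12 fits without 1 library, none kept it in every fit without 1 experiment, and none reversed. The genes were picked from these same libraries, so the kept signs are partly built in. Values that changed sign belonged to genes that were not called or had too few counts. Over all the alternatives they ran from -2.62 to 0.0139 for CBP60G, -1.41 to 0.64 for PAD3, -1.11 to 1.18 for ALD1 and -0.00652 to 4.63 for CYP81D11. On counts simulated for this comparison, 7 of 50 genes with a 2-fold, 36 of 50 with a 4-fold and 37 of 50 with an 8-fold difference in response were called. These genes were drawn from loci with a mean of 10 CPM or more, and the counts from the model that the fit assumes. The part of depth in the misses was not tested.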
